A study of Mus musculus with 6 samples.

Results

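The heat shock proteins and J-domain chaperones were taken from RNA sequencing of mouse inguinal adipose tissue (iAT). Members were chosen by gene symbol alone, as symbols that start with *Dnaja*, *Dnajb*, *Dnajc* or *Hsp90*, as *Hspa* or *Hspb* symbols with a number and at most 1 further letter, and as *Hspd1*, *Hspe1*, *Hsph1* and *Hsf1*. This gave 70 of the 19831 genes listed. The iAT was collected at postnatal day 6 from wild-type mice (WT, 3 samples) and from mice lacking neuropeptide FF receptor-1 (Npffr1-KO, 3 samples), all kept under specific pathogen free conditions, with total RNA extracted by TRIZOL. The labels give no sex, strain or litter, do not say whether the receptor was deleted in all cells, and do not say whether a sample was 1 animal. The question of the series was which transcripts differ when the receptor is missing.

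Heat shock proteins are molecular chaperones. HSP70 binds unfolded stretches of a protein and releases them in a cycle driven by ATP, J-domain proteins bring it substrates and stimulate its ATPase, nucleotide exchange factors reset it, and HSP90 takes over clients such as kinases and steroid receptors for their last folding steps. The chaperonin of the mitochondrial matrix encloses imported proteins, and small heat shock proteins hold unfolded proteins without using ATP. In stressed cells heat shock factor 1 (HSF1) binds heat shock elements in promoters, while chaperones of the endoplasmic reticulum (ER) are induced through ER stress elements. In fat these proteins serve the folding of secreted adipokines in the ER and of imported enzymes in mitochondria.

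The promoters show which members carry such elements close to their start. RefSeq windows from 250 bases before to 50 bases after each start (build GRCm38.p6) were at hand for 56 of the 70 members. A full heat shock element was searched as GAANNTTCNNGAA on both strands, its reverse complement being TTCNNGAANNTTC. It was found in 4 of the 56 members, 7.14%, and in 0.619% of the 15196 listed genes with a window. The 4 members were *Hspd1*, *Hspe1*, *Hsph1* and *Dnajb6*, of which *Hspd1* and *Hspe1* share 1 stretch. The heat-inducible *Hspa1a*, *Hspa1b*, *Dnajb1* and *Hspb1* had a window without a match. An ER stress element, searched as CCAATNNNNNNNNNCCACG on both strands, lay in 3 members, 5.36%, and in 0.171% of the genes. These were *Hspa5*, *Hsp90b1* and *Dnajc3*. *Hsf1*, *Hspa8*, *Hsp90aa1*, *Hsp90ab1* and *Hspa9* were among the 14 members without a window here. A match is a description of the letters and no proof of binding, and members without a match lack only these letters in this window.

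The first sequence below is the interval between the starts of *Hspe1* and *Hspd1*, genes on opposite strands of chromosome 1 whose nearest starts lie 216 bases apart. It is shown because 1 stretch lies in the windows of both genes, and its capitals mark 2 overlapping matches to the heat shock element. It covers chr1:55087933-55088147 on the plus strand. *Dnajb6* is shown as a carrier of the same element with nearly equal values in both genotypes, over chr5:29735648-29735897 on the plus strand. For *Hsph1*, the element lies in the first bases after a start rather than before it, and 30 bases around it are given, chr5:149636279-149636308 on the minus strand.
Hspe1 and Hspd1: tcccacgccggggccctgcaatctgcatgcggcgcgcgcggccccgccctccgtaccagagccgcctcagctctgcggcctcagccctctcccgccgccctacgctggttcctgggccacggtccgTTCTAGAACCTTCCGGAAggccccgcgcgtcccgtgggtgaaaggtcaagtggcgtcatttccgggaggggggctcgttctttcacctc
Dnajb6: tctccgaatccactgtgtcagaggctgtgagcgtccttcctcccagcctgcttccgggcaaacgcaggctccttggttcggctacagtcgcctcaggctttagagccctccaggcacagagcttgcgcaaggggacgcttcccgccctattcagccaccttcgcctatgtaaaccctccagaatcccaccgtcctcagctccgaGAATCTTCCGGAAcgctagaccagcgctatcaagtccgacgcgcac
Hsph1: gctgcagaTTCTGGAAAGTTCtcctcagta

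The carriers of the ER stress element are shown over the 250 bases before the start, with the element in capitals, since their values in Npffr1-KO iAT differed from each other. *Hspa5* covers chr2:34771840-34772089 on the plus strand, *Hsp90b1*, with 2 matches, chr10:86705445-86705694 on the minus strand, and *Dnajc3* chr14:118937682-118937931 on the plus strand.
Hspa5: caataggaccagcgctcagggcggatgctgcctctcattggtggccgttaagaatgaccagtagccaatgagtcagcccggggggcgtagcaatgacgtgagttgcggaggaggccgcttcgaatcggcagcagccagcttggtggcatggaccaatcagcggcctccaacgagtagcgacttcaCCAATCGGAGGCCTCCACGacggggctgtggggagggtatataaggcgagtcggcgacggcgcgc
Hsp90b1: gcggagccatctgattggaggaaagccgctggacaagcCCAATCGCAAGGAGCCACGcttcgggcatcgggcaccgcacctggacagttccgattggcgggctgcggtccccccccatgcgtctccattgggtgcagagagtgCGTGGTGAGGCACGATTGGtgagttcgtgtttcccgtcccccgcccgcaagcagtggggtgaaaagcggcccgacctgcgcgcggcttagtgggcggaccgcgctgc
Dnajc3: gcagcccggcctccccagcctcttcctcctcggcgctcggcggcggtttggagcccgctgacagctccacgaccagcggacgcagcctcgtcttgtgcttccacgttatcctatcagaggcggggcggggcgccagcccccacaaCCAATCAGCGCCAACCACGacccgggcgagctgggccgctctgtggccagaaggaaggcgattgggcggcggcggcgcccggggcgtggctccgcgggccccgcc

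The deposited table gives 1 value per gene and genotype, as counts normalized for library size, and no value per sample. The genotype values therefore carry no error here, no test across all genes was made, and every ratio below is a description of 2 values. The authors' model draws the ratio of low genes toward 1. Ratios are given as log2 of Npffr1-KO over WT, and a gene was counted as higher when its Npffr1-KO value was at least 25% above the WT value, and as lower when its WT value was at least 25% above the Npffr1-KO value. This 25% threshold was used for genes whose mean over both genotypes reached 10 normalized counts. The sums over all genes were 23137343 normalized counts in WT and 23640005 in Npffr1-KO. *Npffr1* itself was at the edge of detection, with a value of 1.12 in WT and 0.855 in Npffr1-KO. For such low genes the reads of each library follow from the deposited values. *Npffr1* had 1, 0 and 5 reads in WT and none in any Npffr1-KO library, too few for a check of the labels. The fat markers were present in both genotypes, the summed value of 6 adipocyte genes being 250546 in WT and 274043 in Npffr1-KO.

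Chaperone transcripts made up 0.667% of all normalized counts in WT iAT and 0.756% in Npffr1-KO iAT, with member sums of 154345 and 178752. *Hspa8*, the constitutive cytosolic HSP70, and *Hsp90ab1*, the constitutive cytosolic HSP90, together held 40.5% of the member sum in WT and 42.2% in Npffr1-KO. Per kb of gene length, the median level of members in WT was 360 normalized counts, against 103 for all listed genes. Of the 70 members, 53 lay above the median gene, 14 in the top 10% and 2 in the top 1% of levels per kb. *Hspb3* had the lowest value, from a gene with no read in any WT library.

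**Figure D1:**
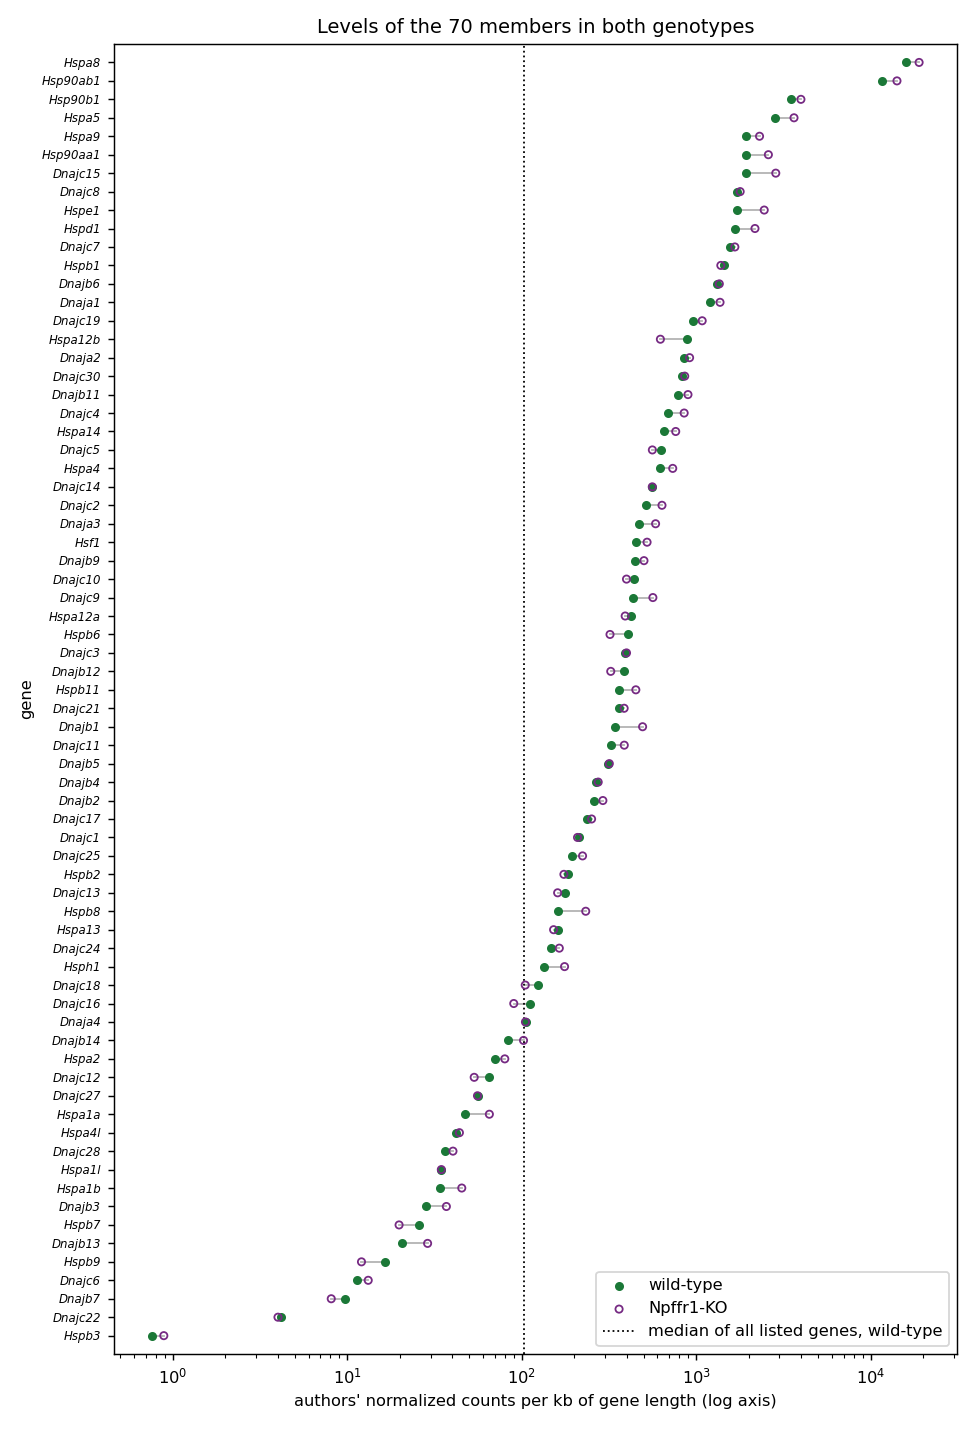
Levels of the 70 members, one row per gene ordered by the WT level, as the authors' normalized counts per kb of gene length on a log axis. Filled points are the WT value, open points the Npffr1-KO value, and the dotted line is the median of all listed genes in WT, 103. *Hspa8* and *Hsp90ab1* stand far to the right, *Hspb3* lies below 1, and for most genes the 2 points nearly coincide.

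Most members had a slightly higher value in Npffr1-KO than in WT. Of the 68 members that reached the minimum (all but *Hspb3* and *Dnajc22*), 49 were above and 19 below a log2 ratio of 0, while of all 15309 genes that did 51.2% were above and 48.8% below. The median log2 ratio was 0.17 for members and 0.01 for all genes. Past the 25% threshold, 13 members were higher, 19.1%, against 12.0% of all genes, and 4 were lower, 5.88%, against 11.6% of all genes. No member reached 1.5-fold in either direction, which 2.78% of all genes did upward and 3.12% downward. The 13 were *Hsp90aa1*, *Hspa1a*, *Hspa1b*, *Hsph1*, *Hspa5*, *Hspd1*, *Hspe1*, *Hspb8*, *Dnajb1*, *Dnajb3*, *Dnajb13*, *Dnajc9* and *Dnajc15*, and the 4 were *Hspa12b*, *Hspb6*, *Hspb7* and *Hspb9*.

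The threshold cut through a continuous range. Just inside it on the upper side were *Hspa5* (0.36) and *Hspd1* (0.38), and just outside were *Dnaja3* and *Hspb11*, both at 0.32. On the lower side, *Hspb6* (-0.34) and *Hspb7* (-0.37) lay just inside, and *Dnajc16* (-0.30) and *Dnajc12* (-0.29) just outside.

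**Figure D2:**
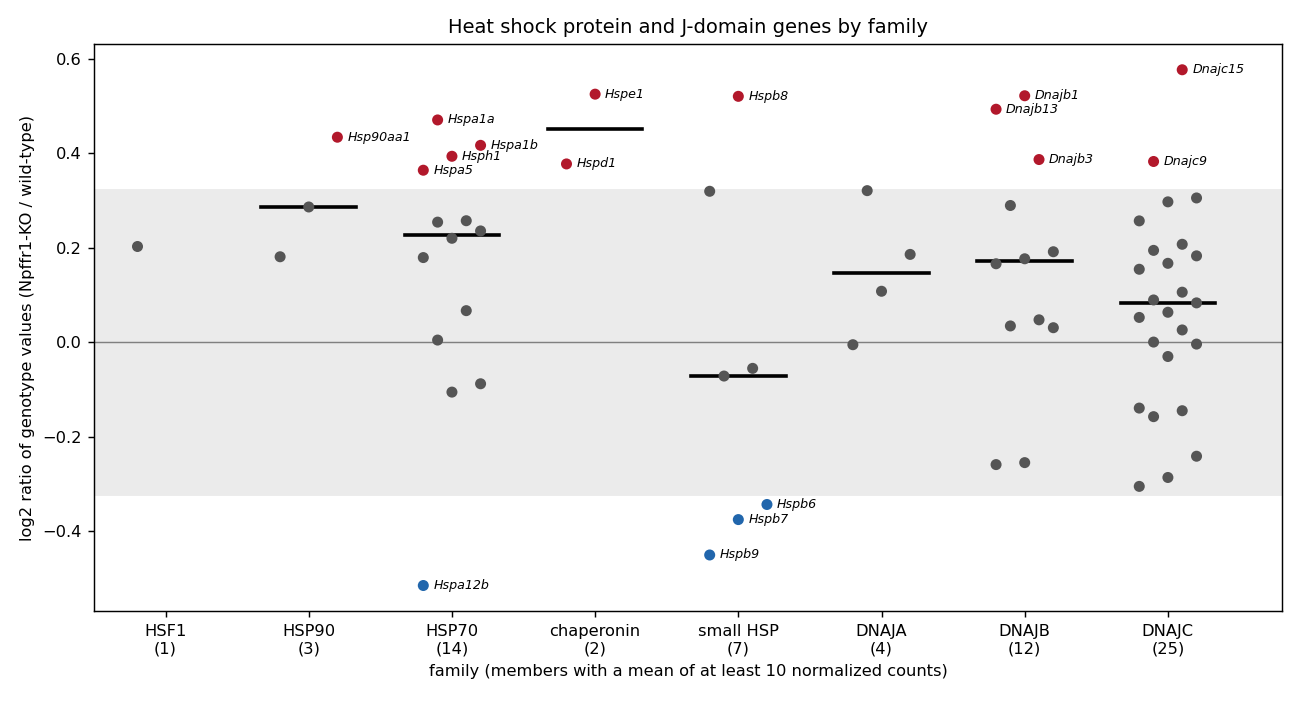
Log2 ratio of the genotype values (Npffr1-KO over WT) for the 68 members above the minimum, by family, each point a gene and each bar the family median. The grey band marks ratios within the 25% threshold, red points are higher and blue points lower than that. The chaperonin pair has the highest family median, 0.45, and the small heat shock proteins the only median below 0, -0.07.

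Gene length moved with the ratio across the whole table, and this touches every count given here. The median log2 ratio of all genes was 0.27 in the shortest of 20 classes of length and -0.15 in the longest. After each gene was centred on the median of its class, the median of members was 0.10 and 46 of 68 were above 0. The counts past the threshold then became 8 of 68 higher and 8 of 68 lower, against 8.19% and 11.6% of all genes. The share of lower members was then close to that of all genes. *Hsp90aa1*, *Hspa1a*, *Hspa1b*, *Hsph1*, *Hspa5*, *Hspb8* and *Dnajb1* stayed higher and *Hspa4* joined them. *Hspd1*, *Hspe1*, *Dnajb3*, *Dnajb13*, *Dnajc9* and *Dnajc15* came to lie within the threshold. The 4 lower members stayed lower, and *Hspb2*, *Dnajb7*, *Dnajb12* and *Dnajc12* joined them. The source of the trend over length was not tested.

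Members did not follow the length trend evenly. Among those from 1500 to under 3000 bases, 28 of 31 were above 0, with a median log2 ratio of 0.19 where all genes of that length had 0.05. Shorter members had a median of 0.09 (17 genes, 11 above 0), below the 0.20 of all genes of that length. Members of 3000 bases or more had a median of -0.00 (20 genes, 10 above 0), above the -0.08 of all genes.

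**Figure D3:**
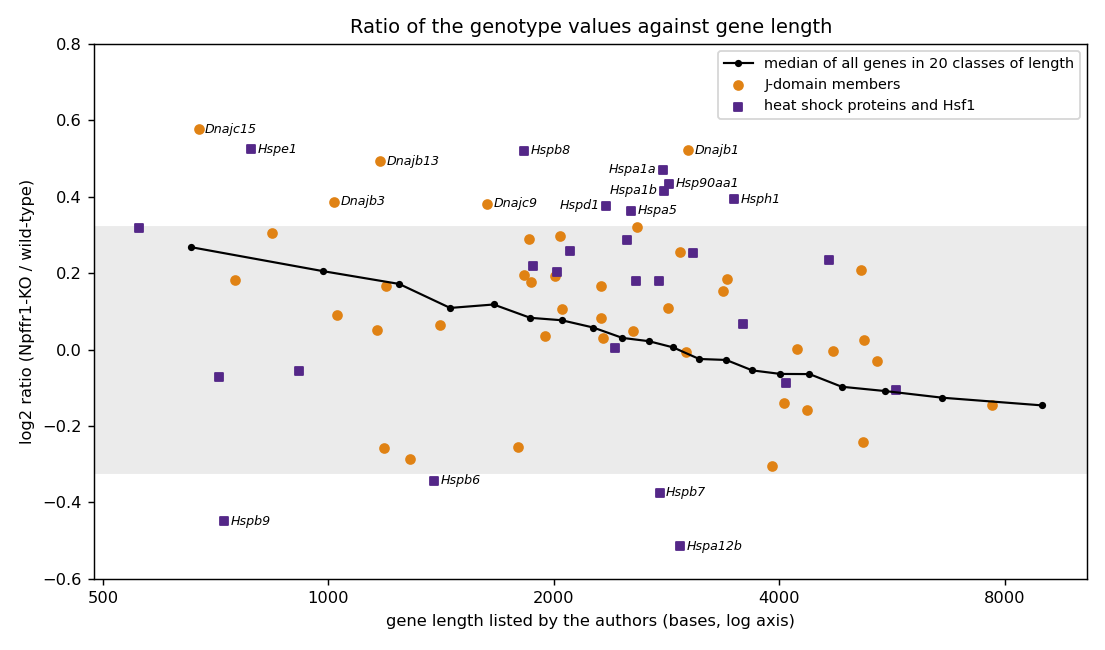
Log2 ratio of the genotype values against the gene length listed by the authors, in bases on a log axis, for the 68 members. Circles are J-domain members, squares are heat shock proteins and *Hsf1*, the line joins the medians of all genes in 20 classes of length, and the grey band marks the 25% threshold. The line falls from 0.27 to -0.15, *Dnajc15* and *Hspe1* sit at its high, short end, and *Dnajb1*, *Hspa1a*, *Hsp90aa1* and *Hsph1* stand far above it.

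The 7 classical heat-inducible members are known to be induced when cells are heated, or to drive that induction. They had 9431 normalized counts in WT and 12120 in Npffr1-KO, of which *Hsp90aa1* alone held 5473 and 7392. Past the threshold 5 of the 7 were higher, 71.4%, against 12.0% of all genes. The median log2 ratio of the 7 was 0.42, and also 0.42 after centring on length. *Hsf1*, their activator, had 916 normalized counts in WT and 1055 in Npffr1-KO (0.20). *Dnajb1*, the J-domain protein that works with HSP70 in dissolving aggregates, had 1036 and 1487 (0.52). *Hsph1*, an HSP110 that resets HSP70, had 466 and 612 (0.39).
*Hspa1a* and *Hspa1b*, the stress-induced HSP70 genes, had 132 against 182 (0.47) and 95.3 against 127 (0.42). Both therefore stood higher in Npffr1-KO, but their transcripts share 65.4% and 68.0% of their 31-base sequences with other genes, mostly with each other, so the division of reads between them is uncertain. Their sum, which that division does not touch, was 227 in WT and 310 in Npffr1-KO (0.45). *Hspb1*, the small heat shock protein of this list, had 1313 and 1264 (-0.06), unlike the others, and shares 52.3% of its 31-base sequences with a pseudogene. Per kb the list spanned a wide range in WT. It ran from 33.9 normalized counts for *Hspa1b* and 47.0 for *Hspa1a*, both below the median gene, to 1438 for *Hspb1* and 1921 for *Hsp90aa1*. The constitutive *Hspa8*, which is not on this list, had 15878.

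Immediate early genes, listed as markers of tissue handling, also had higher values in Npffr1-KO. All 8 on the marker list (*Fos*, *Fosb*, *Jun*, *Junb*, *Egr1*, *Atf3*, *Ier2* and *Dusp1*) were higher past the threshold, against 12.0% of all genes. Their log2 ratios ran from 0.57 to 0.96, with a median of 0.69 and sums of 29099 in WT and 48006 in Npffr1-KO. None of the 8 was at 0. Their part in the chaperone values was not tested, and with 1 value per genotype it could not be seen whether the same libraries were high in both sets.

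HSP90 genes were all above 0. *Hsp90aa1*, the inducible cytosolic HSP90, had 5473 normalized counts in WT and 7392 in Npffr1-KO (0.43), and *Hsp90ab1* had 29125 and 35513 (0.29). *Hsp90b1*, the HSP90 of the ER (GRP94), had 9702 and 10997 (0.18). The inducible form stayed the minor cytosolic one, at 0.165 of the level of *Hsp90ab1* per kb in WT and 0.183 in Npffr1-KO. Of the 31-base sequences of *Hsp90aa1* 51.4% also occur in transcripts of other genes, chiefly pseudogenes, so its value may include or lack reads of copies. The median of the family was 0.29, and 0.26 after centring.

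The HSP70 family held the member with the highest level per kb and the one with the lowest ratio. Of 14 genes, 11 were above 0, 78.6%, against 51.2% of all genes, with a median of 0.23 (0.17 after centring). Past the threshold 4 were higher, 28.6%, and 1 was lower, 7.14%, against 12.0% and 11.6% of all genes. *Hspa8*, which also strips clathrin from vesicles, had 33408 normalized counts in WT and 39923 in Npffr1-KO (0.26), and shares 43.5% of its 31-base sequences with other genes, so its level is uncertain to that extent. *Hspa5* (BiP), the HSP70 of the ER, had 7172 and 9230 (0.36). *Hspa9* (mortalin), which pulls proteins into the mitochondrial matrix, had 5936 and 7078 (0.25). All 3 values were thus somewhat higher in Npffr1-KO, and per kb *Hspa8* was 8.20-fold *Hspa9* in WT and 8.22-fold in Npffr1-KO.
*Hspa4*, a nucleotide exchange factor of the HSP110 kind, had 2902 and 3416 (0.24), and its relative *Hspa4l* 150 and 157 (0.07). *Hspa14*, which sits at the ribosome together with the J-domain protein *Dnajc2*, had 1228 and 1430 (0.22), next to 1055 and 1297 (0.30) for *Dnajc2*. *Hspa2*, best known from spermatogenesis, had 182 and 206 (0.18), and *Hspa13*, an ER form, had 660 and 621 (-0.09).

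*Hspa12b* went the other way. This distant HSP70 relative, known from endothelial cells, had 2622 normalized counts in WT and 1836 in Npffr1-KO (-0.51), the lowest ratio of all members. Its nearest relative *Hspa12a* had 2415 and 2245 (-0.11), and the ratio of *Hspa12a* to *Hspa12b* per kb was 0.473 in WT and 0.628 in Npffr1-KO. Endothelial markers, a list chosen after the values were seen, were mostly below 0 as well. Of 7 genes 6 were below 0, and 4 were lower past the threshold, 57.1%, against 11.6% of all genes. Their median was -0.37, with sums of 61957 in WT and 49484 in Npffr1-KO. After centring on length 2 of the 7 were lower past the threshold, with a median of -0.30, and *Hspa12b* stood at -0.52. None of them was at 0. In bulk tissue, fewer cells of a type and less RNA per cell cannot be told apart, and the part of endothelial cells in the value of *Hspa12b* was not tested.

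Both genes of the mitochondrial chaperonin were higher. *Hspd1* (HSP60), which forms the folding chamber, had 3927 normalized counts in WT and 5100 in Npffr1-KO (0.38). *Hspe1* (HSP10), its lid, had 1345 and 1935 (0.52). They were nearly equal per kb, the ratio of *Hspe1* to *Hspd1* being 1.02 in WT and 1.13 in Npffr1-KO, and they share the interval with the heat shock elements printed above. *Hspe1* is short, and after centring on length the pair stood at 0.26 (*Hspe1*) and 0.32 (*Hspd1*), within the threshold. *Hspd1* shares 50.1% and *Hspe1* 24.8% of its 31-base sequences with other genes.

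All 10 members placed in mitochondria, by compartments assigned after the values were seen, were above 0, against 51.2% of all genes. Their median was 0.28 (0.25 after centring, when 8 of 10 remained above 0). Past the threshold 3 of the 10 were higher, 30%, against 12.0% of all genes. After centring 0 were, against 8.19% of all genes. Beside the chaperonin and *Hspa9*, the J-domain partner *Dnaja3* had 1208 and 1509 normalized counts (0.32), and *Dnajc11*, which associates with the cristae-organizing complex of the inner membrane, 953 and 1139 (0.26). *Dnajc15*, an inner membrane J-domain protein that restrains respiratory complex I, showed the largest ratio of all members, with 1287 in WT and 1919 in Npffr1-KO (0.58, and 0.31 after centring). *Dnajc19*, the related subunit of the import motor, had 716 and 813 (0.18), so that *Dnajc15* stood at 2.01-fold *Dnajc19* per kb in WT and 2.64-fold in Npffr1-KO. The others were *Dnajc4* (581 and 718, 0.31), *Dnajc30* (961 and 997, 0.05) and *Dnajc28* (122 and 136, 0.15).
Markers of thermogenic fat cells mostly had higher values in Npffr1-KO too. Of 7 such genes 6 had a mean of at least 10, with a median of 1.62. Of those 6 genes 5 were higher, 83.3%, against 12.0% of all genes. The 7 summed to 1569 in WT and 5212 in Npffr1-KO, and *Elovl3* lay near 0 in both (0.452 and 0.511). *Dio2*, a low gene of this list, had 13, 11 and 51 reads in WT and 54, 26 and 19 in Npffr1-KO, so its libraries overlapped. Their part in the mitochondrial chaperone values was not tested.

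The ER members, 14 in all, were split, with 8 above 0 and a median of 0.01 (0.09 after centring). *Hspa5* was the only 1 past the threshold, 7.14%, where 12.0% of all genes were higher and 11.6% lower. *Dnajb11* and *Dnajb9*, J-domain partners of BiP in the lumen, had 1578 against 1802 (0.19) and 828 against 936 (0.18). *Dnajc3*, another luminal partner and a carrier of the ER stress element, had 2031 and 2068 (0.03), so the 3 carriers differed, at 0.36 for *Hspa5*, 0.18 for *Hsp90b1* and 0.03 for *Dnajc3*. The carriers of the heat shock element differed as well, from 0.03 for *Dnajb6* (2576 and 2638) to 0.52 for *Hspe1*.
J-domain proteins of the ER with values below 0 were *Dnajc16* (435 and 352, -0.30), *Dnajb12* (691 and 579, -0.25), which helps to degrade misfolded membrane proteins, *Dnajc18* (639 and 541, -0.24), *Dnajc10* (1779 and 1615, -0.14), a reductase of wrong disulfide bonds, and *Dnajc1* (1153 and 1129, -0.03). *Dnajb14*, the close relative of *Dnajb12*, lay on the other side of 0 with 155 and 189 (0.29). *Dnajc25* had 356 and 408 (0.19), and *Dnajc14* had 2368 in each genotype (0.00). Per kb, *Hsp90b1* was 1.24-fold *Hspa5* in WT and 1.10-fold in Npffr1-KO.

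Small heat shock proteins were the family with the most members lower in Npffr1-KO. Of 7 that passed the minimum, 5 were below 0, and the median was -0.07, or -0.34 after centring on length. Past the threshold 1 was higher and 3 were lower (*Hspb6*, *Hspb7* and *Hspb9*), 42.9%, against 11.6% of all genes. The libraries of *Hspb7* and of *Hspb9* overlapped between genotypes, and *Hspb9* had only 5 to 17 reads per library. *Hspb6* had no value per library, so its spread is unknown. *Hspb6*, a small heat shock protein of muscle that also occurs in fat, had 562 normalized counts in WT and 443 in Npffr1-KO (-0.34). *Hspb7*, of heart and muscle, had 71.0 and 54.8 (-0.37), and *Hspb2*, of muscle, 131 and 125 (-0.07). *Hspb8* differed from them with 296 and 425 (0.52). It works with the cochaperone *Bag3* in the selective disposal of damaged proteins, and *Bag3*, named here after its value was seen, had 2060 and 1803 (-0.19). *Hspb11* had 202 and 252 (0.32), and despite its symbol it is a part of the transport machinery of cilia.

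Muscle markers did not move in 1 direction. Of 6 smooth muscle genes, chosen after the values were seen, 5 were below 0 and *Myh11* was lower past the threshold (-0.55), with a median of -0.15 and sums of 22815 and 20177. Of 10 skeletal muscle genes, with sums of 596 and 1074, 9 passed the minimum. All 9 were higher, against 12.0% of all genes, with log2 ratios from 0.40 to 1.26. Reads per library, looked up for 3 of these after their values were seen, were unevenly spread. *Ckm*, the muscle creatine kinase, had 2, 3 and 2 reads in WT and 215, 1 and 6 in Npffr1-KO, so nearly all its reads came from 1 Npffr1-KO library, called KO a here. *Actn3* had 15, 6 and 22 reads in WT and 52, 11 and 17 in Npffr1-KO, and *Mb* had 13, 3 and 3 against 14, 11 and 21. The part of muscle in the values of the small heat shock proteins was not tested.

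The reads of each library could be worked out in 9 of the 10 members with both genotype values under 100, and these are the members with a replicate error. Libraries are called a, b and c within a genotype and were not tied to sample numbers. With 3 against 3 libraries, the smallest p of the exact two-sided permutation test is 0.1, so no difference here can pass 0.05, and 9 members were compared. *Dnajb13*, a J-domain protein of cilia and sperm flagella, had 22, 27 and 22 reads in WT and 34, 37 and 31 in Npffr1-KO. The genotypes did not overlap, at 23.2 ± 2.84 against 34.6 ± 2.39 normalized counts (SD, n = 3 each, exact permutation p = 0.1). *Dnajb3*, known from testis, had 31, 27 and 28 reads in WT and 37, 46 and 30 in Npffr1-KO.
As plain reads these ranges touched, with 30 in an Npffr1-KO library and 31 in a WT library. Divided by library size the values did not overlap, at 28.1 ± 1.77 and 38.3 ± 7.21 (SD, n = 3 each, exact permutation p = 0.1). These were the only members with a mean from 20 to 40 normalized counts. Of all 898 genes in that range, every Npffr1-KO library lay above every WT library in 6.35%, and below in 10.1%, and no such share was computed at the levels of the other 7 members. After centring on length both genotype ratios lay within the threshold.

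The other low members overlapped between genotypes. *Hspb7* had 53, 79 and 88 reads in WT and 62, 49 and 48 in Npffr1-KO, or 72.0 ± 18.7 and 53.9 ± 5.31 normalized counts (SD, n = 3 each, exact permutation p = 0.3). Its lowest WT library thus lay within the range of the Npffr1-KO libraries. *Hspb9*, a testis form, had 10, 12 and 17 reads in WT and 7, 5 and 11 in Npffr1-KO, or 12.8 ± 3.71 and 7.93 ± 3.63 (SD, n = 3 each, exact permutation p = 0.3). Its library means gave a log2 ratio of -0.69, against -0.45 from the genotype values. *Dnajb7*, also of testis, had 12, 16 and 9 reads in WT and 17, 4 and 6 in Npffr1-KO (exact permutation p = 0.5), the highest value being an Npffr1-KO library.
Testis transcripts were scarce, with *Prm1* at 0.472 in WT and 0.493 in Npffr1-KO and *Ddx4* at 4.39 and 3.20, although *Acr* had 190 and 75.1. *Dnajc6* (auxilin), which recruits HSP70 to clathrin coats, had 73, 45 and 60 reads in WT and 94, 72 and 38 in Npffr1-KO (exact permutation p = 0.6). Its difference of 10.2 normalized counts turned to -0.97 without library KO a. That library also held most reads of *Ckm*, but any link of *Dnajc6* to muscle was not tested. *Hspa1l*, the testis HSP70 beside *Hspa1a* and *Hspa1b*, had 96, 66 and 93 against 92, 76 and 78 reads (exact permutation p = 1.0), with means of 83.2 ± 16.1 and 83.5 ± 6.14 normalized counts (SD, n = 3 each). At this spread, near-equal means do not show equal levels.

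The 2 members under the minimum were nearly silent. *Hspb3*, a small heat shock protein of skeletal muscle, had 0 reads in 5 libraries and 4 reads in library KO a, the library that held the *Ckm* reads (exact permutation p = 1.0). *Dnajc22* had 8, 2 and 9 reads in WT and 5, 6 and 6 in Npffr1-KO (exact permutation p = 0.9). For *Dnajc12*, a partner of the enzymes that hydroxylate aromatic amino acids, 2 combinations of reads matched, so only its genotype values are given, 83.6 and 68.5 (-0.29).

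**Figure D4:**
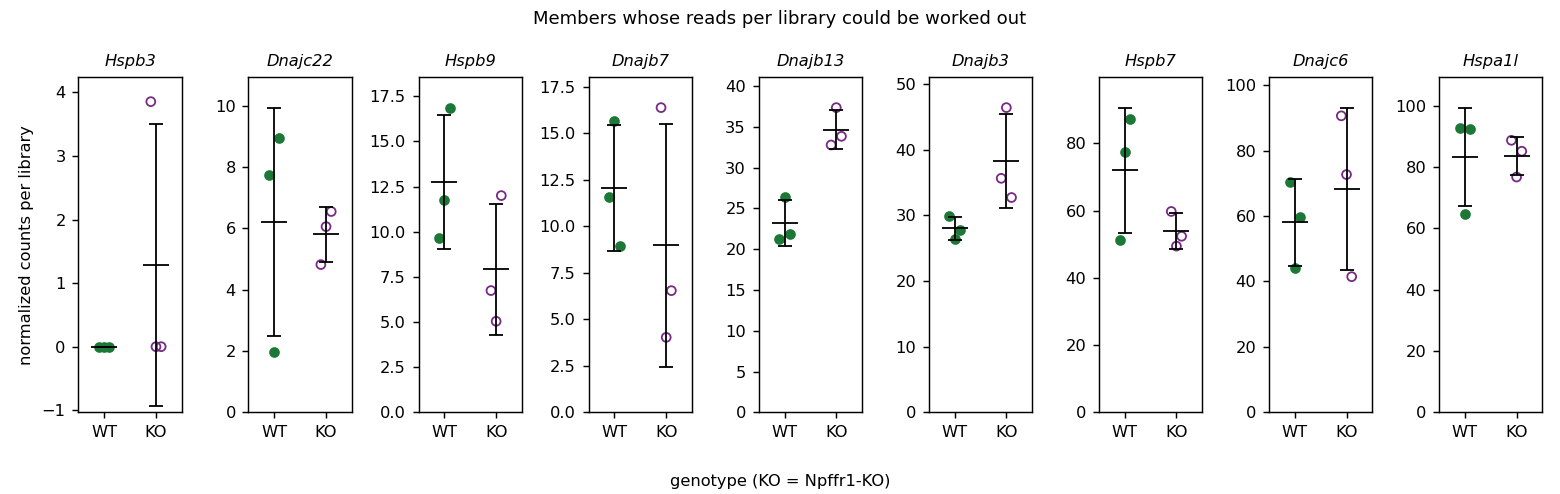
Normalized counts per library of the 9 members whose reads could be worked out, 1 panel per gene with its own axis, filled points for the 3 WT and open points for the 3 Npffr1-KO libraries. Horizontal marks are the mean and error bars the SD. *Dnajb13* and *Dnajb3* show no overlap between genotypes, and the single *Hspb3* value above 0 belongs to library KO a.

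No DNAJA gene passed the threshold, which 12.0% of all genes did upward and 11.6% downward, and 3 of 4 were above 0. *Dnaja1*, a general partner of cytosolic HSP70, had 4104 in WT and 4668 in Npffr1-KO (0.19), *Dnaja2* 2415 and 2602 (0.11) and *Dnaja4* 316 and 315 (-0.01). Against *Dnaja1*, the level of *Dnajb1* per kb was 0.285 in WT and 0.360 in Npffr1-KO. Of 12 DNAJB genes 10 were above 0, 83.3%, against 51.2% of all genes, with a median of 0.17. Past the threshold 3 were higher, 25%, and 0 lower, against 12.0% and 11.6% of all genes. After centring only *Dnajb1* of the 3 stayed higher, and 2 other DNAJB genes were lower. *Dnajb2* had 601 and 674 (0.17), *Dnajb4* 677 and 699 (0.05) and *Dnajb5* 723 and 739 (0.03).

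The DNAJC genes, the most diverse group, centred close to the table as a whole, with a median of 0.08 (0.03 after centring). Of 25 genes 17 were above 0, 68%, against 51.2% of all genes. Past the threshold 2 were higher, 8%, and 0 lower, against 12.0% and 11.6% of all genes. *Dnajc9*, which chaperones histones, had 706 and 921 (0.38, and 0.26 after centring). *Dnajc7*, which hands clients between HSP70 and HSP90, had 3636 and 3852 (0.08). *Dnajc8* and *Dnajc17*, of the splicing machinery, had 2411 against 2520 (0.06) and 242 against 258 (0.09). *Dnajc21*, needed for ribosome maturation, had 737 and 793 (0.11), and *Dnajc24*, of diphthamide synthesis, 174 and 196 (0.17).
The 4 members of vesicle traffic had a median of -0.07, with 1 of 4 above 0. *Dnajc5*, the cysteine string protein of secretory vesicles, had 2723 and 2442 (-0.16), *Dnajc13*, of endosomes, 1366 and 1236 (-0.14), and *Dnajc27* 263 and 263 (-0.00). These are long genes, and the median of the 4 was 0.05 after centring.

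Partners of the chaperones that are not members mostly differed by small factors as well. Of 23 cochaperones 17 were above 0, with a median of 0.10 (0.07 after centring). Past the threshold 3 were higher, 13.0%, close to the 12.0% of all genes, and 0 were lower, against 11.6%. The 3 were *Stip1*, which links HSP70 to HSP90 (2068 and 2759, 0.42), *Fkbp4*, of steroid receptor complexes (2067 and 2740, 0.41), and *Ahsa1*, the activator of the HSP90 ATPase (1459 and 1870, 0.36). After centring *Ahsa1* lay within the threshold (0.19), which left 2. Those of highest mean were *Bag6* (-0.00), *Bag1* (-0.03) and *Cdc37* (0.29), which loads kinases onto HSP90. All 8 subunits of the cytosolic chaperonin CCT were above 0, from 0.14 to 0.34, with a median of 0.23 (0.17 after centring). Only *Cct5* was past the threshold (3591 and 4540, 0.34), though not after centring (0.22). That share, 12.5%, was also close to the 12.0% of all genes. Those of highest mean were *Tcp1* (0.14), *Cct2* (0.22) and *Cct6a* (0.15).
Of 12 further ER chaperones 11 were above 0, with a median of 0.18 (0.13 after centring). Past the threshold 2 were higher, 16.7%, against 12.0% of all genes. *Sdf2l1* had 161 and 277 (0.78) and *Manf* 1568 and 2105 (0.43), while *Serpinh1*, the collagen chaperone, had 19816 and 21144 (0.09), *Calr* 13463 and 16079 (0.26) and *Pdia3* 9719 and 10838 (0.16). Of 9 mitochondrial partners 8 were above 0, with a median of 0.18 (0.14 after centring). Past the threshold 2 were higher, 22.2%, against 12.0% of all genes, namely *Hscb* (249 and 341, 0.45) and *Clpb* (817 and 1099, 0.43). After centring *Hscb* fell within the threshold (0.19). Those of highest mean were *Trap1* (0.20), *Lonp1* (0.10) and *Timm44* (0.18). All these lists lay above the 0.01 of all genes, within the threshold in the median.

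Among low relatives, the reads of each library were looked up for *Cryaa* and *Hsf4*, chosen after their wide ratios were seen. *Cryaa*, an alpha-crystallin of the lens, had 8, 6 and 12 reads in WT and 28, 21 and 20 in Npffr1-KO, or 8.50 ± 3.09 and 23.3 ± 3.18 normalized counts (SD, n = 3 each). *Hsf4*, the heat shock factor of the lens, had 13, 10 and 9 reads in WT and 22, 14 and 28 in Npffr1-KO, or 10.4 ± 1.89 and 22.0 ± 8.24 (SD, n = 3 each). Since both were picked for their ratios, these values are a description without a test. *Cryab*, the alpha-crystallin of many tissues, had 2197 and 2458 (0.16), and the J-domain kinase *Gak* 2614 and 2517 (-0.05). Of the other heat shock factors and their binding protein, *Hsf2* had 364 and 339 (-0.10), *Hsbp1* 3737 and 4088 (0.13) and *Hsf5* 4.13 and 4.01.

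**Figure D5:**
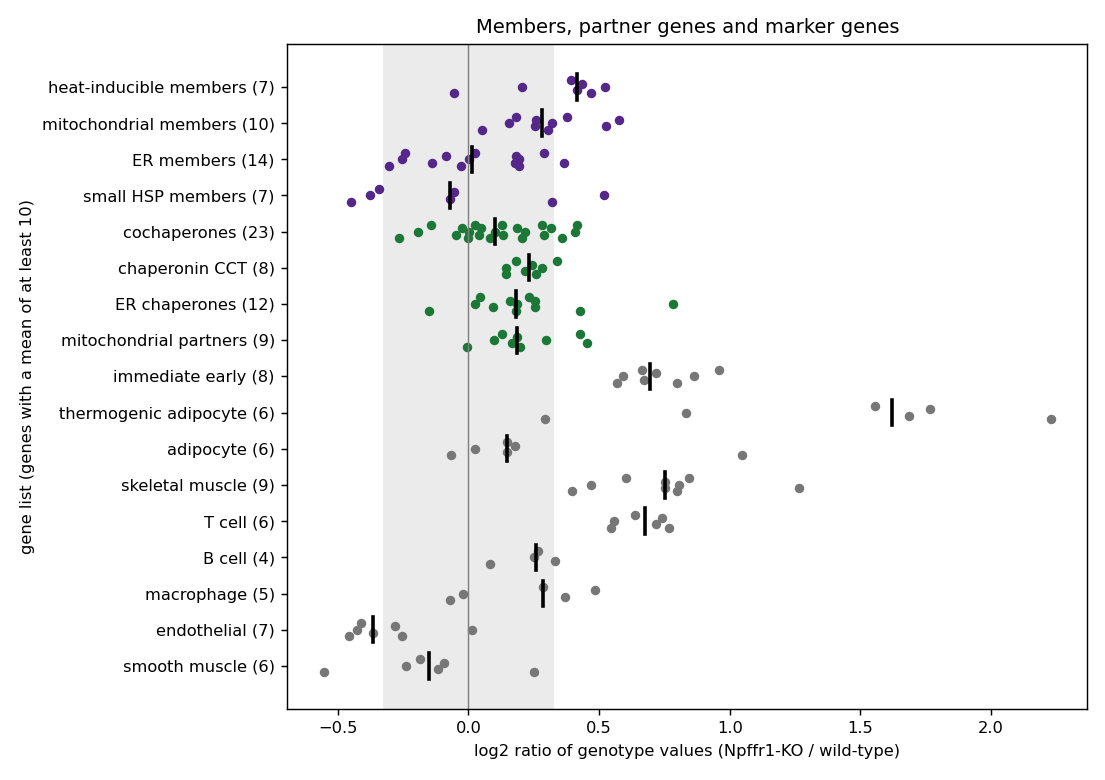
Log2 ratio of the genotype values (Npffr1-KO over WT) for groups of members (purple), partner genes (green) and marker genes (grey), each point a gene with a mean of at least 10, the number of genes in parentheses and a bar at the median. The grey band marks the 25% threshold. Heat-inducible members have a median of 0.42, between the partner lists (0.10 to 0.23) and the immediate early genes (0.69), and thermogenic genes stand farthest to the right (1.62).

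The remaining markers of other cells were given for the makeup of the tissue. All 6 T cell genes were higher past the threshold, against 12.0% of all genes (median 0.68, sums of 6627 and 10478). The 4 B cell genes were above 0 with 1 past the threshold (median 0.26, sums of 8386 and 9958), and of 5 macrophage genes 3 were above 0 and 2 past it (median 0.29, sums of 17266 and 20209). After centring on length none of the B cell and macrophage genes was past the threshold. Keratinocyte markers were scarce, with 1 of 4 above the minimum. No part of these cells in the chaperone values was tested.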

How the data were processed

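Total RNA of iAT was sequenced from 3 WT and 3 Npffr1-KO samples, grouped by the genotype in their labels. The full deposited table holds, for 19831 genes with their length in bases, 1 signal per genotype, which the authors made from read counts normalized for library size. The submitters' processing notes name Bowtie2, RSEM and DESeq2. Which versions, genome build and annotation they used is not given in the sources used here. The table also holds the authors' own fold changes, p-values and direction calls, which were not used. A second deposited table of 90 genes holds no member and was not used.

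The members and all gene lists were chosen with earlier results of these data known, and the compartments and the lists of endothelial and smooth muscle genes after the values were seen. No list was tested. Every member could be named. Full values were given for the 10 highest means, the 10 largest and 10 smallest ratios, the 7 heat-inducible genes and each member with reads per library. Of partner lists, the 3 genes with the highest mean and those past the 25% threshold were named.

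The mean of both genotype values equals the mean of the normalized counts of the 6 libraries. Genes with a single read in all fell on 6 values, 585 genes in total, which gave the 6 size factors (0.916 to 1.04), and the side on which such a gene was higher gave the genotype of its library. All combinations of whole reads were then searched to within 2 times the printing error of values given with 15 digits. Before this search, the size factors were refined by least squares on 400 genes. In 20 genes simulated with known reads and these same size factors, the true reads were found for 20, and a single combination for 18. Error in the size factors was not simulated, so this checks the search alone and not the reads given for real genes. Tests were exact two-sided permutation tests. Intervals of counting error were not formed, as the total depth per library is not given in the table.

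Alternatives were other minimums (1 and 50), thresholds of 1.5-fold and 2-fold, pseudocounts of 1 and 10, values scaled to equal sums, centring on the median gene or on 20 classes of length, and each library left out in turn. Shared sequences of 31 bases came from GENCODE M21 transcripts, in which all 70 members were matched, and promoters from RefSeq. Python 3.11.15, numpy 2.4.6, pandas 2.3.3, scipy 1.17.1 and matplotlib 3.10.9 were used.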

Additional observations from a re-analysis of the deposited data

How the results depend on the processing

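At thresholds of 1.5-fold and of 2-fold, 0 members were higher and 0 lower. Centred on genes of like length, 8 of 68 members were higher and 8 of 68 lower, against 8.19% and 11.6% of all genes. The median log2 ratio of the other heat shock factors then turned to -0.043. Under other minimums, pseudocounts, centring on the median gene and scaling to equal sums, 11 to 13 members were higher and 3 to 5 lower, and over all alternatives the median of members ranged from 0.10 to 0.17. Centring on length moved the log2 ratio of 23 of 68 members by 0.1 or more. No difference of *Dnajb13*, *Dnajb3*, *Hspb7*, *Hspb9* or *Dnajb7* changed sign when a library was left out. For *Dnajb13* it ranged from 10.1 to 13.1 normalized counts, for *Dnajb3* from 6.14 to 13.0, for *Hspb7* from -28.5 to -10.4, for *Hspb9* from -6.86 to -2.77 (-2.77 without WT c) and for *Dnajb7* from -6.77 (without KO a) to -0.60 (without KO b). The differences of *Dnajc22* and *Hspa1l* each changed sign in 3 of 6 cases, from -2.52 to 0.96 and from -9.01 to 5.04. Without library KO a, the difference of *Hspb3* went from 1.28 to 0 and that of *Dnajc6* from 10.2 to -0.97. No paired analysis was possible because the table gives 1 value per genotype and the libraries could not be tied to sample numbers. Depth limits the low members, since a library held 4 to 17 reads of *Dnajb7*.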
